A study of Mus musculus with 11 samples.

Results

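The genes described here encode carriers of sugars, monocarboxylates, urate and related small solutes. They are all rows of the deposited gene table whose symbol is Slc2a, Slc5a, Slc16a, Slc17a, Slc37a or Slc45a followed by a digit, and there are 43 of them among 13985 listed genes. The Slc2a family has 11 members, Slc5a 9, Slc16a 13, Slc17a 4, Slc37a 4 and Slc45a 2. All 43 passed the minimum level used for the tests, a mean of at least 0.5 FPKM (fragments counted per length of transcript and per depth of library) over the 11 samples, and 26 of them stood at 5 FPKM or more in control. The RNA came from cells of adult C57BL/6 mouse kidneys that the labels call primary kidney fibroblasts, isolated by tissue digestion and enriched in serum-containing medium. Of the libraries, 3 were of control kidneys, 4 of kidneys 3 days after unilateral ureteral obstruction (UUO, an operation that closes one ureter and is used as a model of renal fibrosis) and 4 of kidneys 7 days after it. No treatment other than the surgery is recorded, and neither a sham operation, the sex of the mice, nor whether replicates are separate animals is stated, so the p-values speak of the scatter among these libraries, part or all of which may be technical. The question of the comparison is how the transcriptome of the cells differs between control kidneys and each time after obstruction.

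Glucose filtered by the kidney is taken back in the proximal tubule by sodium-coupled carriers of the Slc5a family on the luminal side and leaves the cell on the blood side through facilitative GLUT carriers of the Slc2a family. Lactate, pyruvate and ketone bodies pass by the sodium-coupled carriers SMCT1 and SMCT2 (Slc5a8, Slc5a12) or by the proton-coupled monocarboxylate transporters (MCTs) of the Slc16a family. Urate is handled by Slc2a9 and by the Slc17a carriers, together with organic anion transporters of other families. In the endoplasmic reticulum, Slc37a4 brings glucose 6-phosphate to glucose-6-phosphatase, the last step of glucose release.

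The labelled cell type was checked against marker genes. The 12 fibroblast and pericyte markers summed to 66.7 to 76.1 FPKM in control, 496 to 1020 at day 3 and 1490 to 3800 at day 7, where replicate 3 was lowest, and 10 and then 11 of the 12 rose. The 18 proximal tubule markers summed to 14900 to 18000, 1270 to 2370 and 683 to 899 FPKM, and all 18 fell at both times. Kap alone held most of the control sum. Without Kap the sums were 5350 to 6170 FPKM in control, 657 to 1270 at day 3 and 280 to 420 at day 7. The 12 macrophage markers summed to 747 to 1130, 5090 to 8390 and 6290 to 7160 FPKM, and all 12 rose at both times. None of these markers was at 0 in any library. In every control library the proximal tubule sum was far above the fibroblast and pericyte sum, so these markers did not show the labelled cell type as the main one there. At day 7 the fibroblast and pericyte sum was above the proximal tubule sum, and the macrophage sum was above both. The lists differ in their number of genes. Of 13 distal nephron and collecting duct markers, 11 and then 12 fell, and of 6 injured tubule markers 5 rose at each time, their sum being 339, 750 and 345 FPKM in control replicates 1 to 3, 548 to 917 at day 3 and 478 to 576 at day 7. All 6 red blood cell markers fell at both times, from a sum of 2380 to 6410 FPKM in control to 53.8 to 379 at day 3 and 62.5 to 176 at day 7. The 13 protein genes of the mitochondrial genome took 25.4% to 35.9% of the summed FPKM in control libraries, 6.06% to 7.29% at day 3 and 4.27% to 7.94% at day 7. Control replicate 2 was the highest control library for 13 of the 27 members lower at day 3 and the lowest for 13 others. In such bulk samples, fewer cells of a type and less RNA per cell cannot be told apart, and the part of these marker changes in the results below was not tested.

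Most of the carriers were lower after obstruction. Fold changes are differences of mean log2(FPKM + 1), and signed values in parentheses are such log2 fold changes, at day 3 and then day 7 against control where no time is named; a gene was called where limma's adjusted p was under 0.05. At day 3, 27 of the 43 fell and 10 rose (62.8% and 23.3%), where 65.3% of all 13428 genes tested were called, 21% as lower and 44.4% as higher. At day 7, 27 fell and 9 rose (62.8% and 20.9%), where 69.8% of all genes were called, 23.5% as lower and 46.3% as higher. The median log2 fold change of the 43 was −0.73 at day 3 and −1.1 at day 7, beside 0.26 and 0.28 for all genes tested. Of the members, 25 were lower at both times and 9 higher at both times, and none fell at one time and rose at the other. The share of all genes with each of these patterns was not computed. Of the 9, Slc2a10 and Slc17a9 had control means of 0.222 and 0.25 FPKM, under the minimum of 0.5 FPKM. They passed it only through the obstructed groups, where they were higher, so the filter favoured counting them as rises. Both comparisons share the control libraries, which favours agreement in direction between them. The falls outnumbered the rises with values centred on the library median (29 and 5 at day 3, 31 and 6 at day 7), with quantile-normalized values (29 and 5, 31 and 5) and with TPM (22 and 11, 23 and 12). Of all 13428 genes tested, 4701 fell and 3743 rose at day 3 with centring, and 4654 and 4251 at day 7. With quantile normalization 4358 fell and 4146 rose at day 3, and 4512 and 4535 at day 7. In TPM 1700 fell and 8246 rose at day 3, and 1967 and 8559 at day 7. Falls thus outnumbered rises among all genes too with centring, and at day 3 with quantile normalization. The median of all genes was −0.07 at day 3 and −0.03 at day 7 with centring, −0.01 and 0.01 with quantile normalization, and 0.70 and 0.77 in TPM. TPM values here include mitochondrial genes unless stated. With those genes left out, direction and call stayed as in the main fit for all 43 members at day 3. At day 7 they stayed for 42, and Slc37a1 was called higher. Other calls said below to be lost or gained in TPM thus stood as in the main fit there. The summed FPKM of the 43 genes went from 754 ± 33.5 (SD, n = 3) in control to 339 ± 47.8 (n = 4) at day 3 and 242 ± 15.9 (n = 4) at day 7. The share of that sum held by Slc17a1, Slc2a1 and Slc5a2 was 16.6%, 15.6% and 11.6% in control. At day 7, Slc2a1, Slc16a1 and Slc5a3 led with 23.4%, 8.55% and 7.1%.

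**Figure D1:**
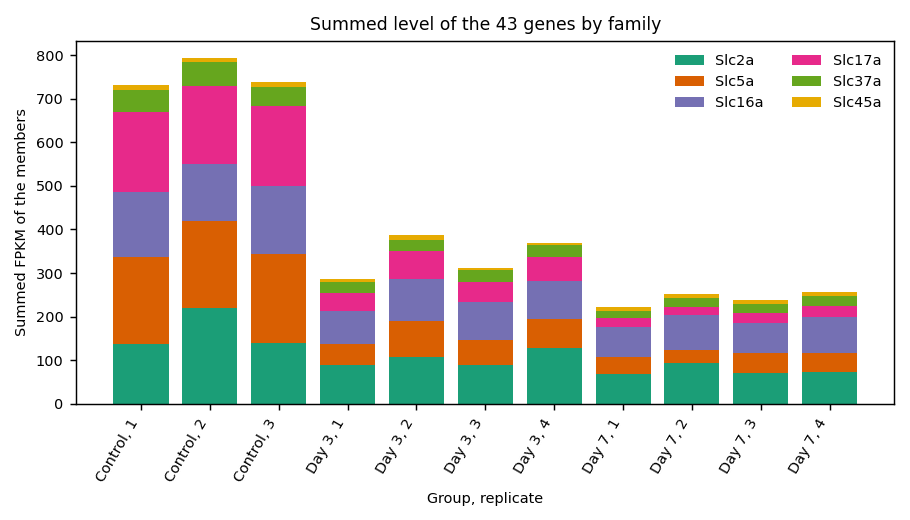
Summed FPKM of the 43 transporter genes in each library, stacked by gene family (bars start at 0). The 3 control libraries sum to 731 to 793, the day 3 libraries to 286 to 388 and the day 7 libraries to 221 to 256.

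The glucose carriers SGLT2 and SGLT1 fell. Slc5a2 encodes SGLT2, which takes up most of the filtered glucose in the early proximal tubule (ENSMUSG00000030781.13, chromosome 7, 128265657 to 128272430 in GRCm38). Its levels ran 96.1, 79.7 and 86.3 FPKM in the control libraries, 14.9, 32.4, 16.7 and 26.4 at day 3 and 7.47, 5.71, 5.65 and 7.78 at day 7. The groups did not overlap, and every day 7 library was below every day 3 library (87.4 ± 8.28, 22.6 ± 8.23 and 6.65 ± 1.13 FPKM). It fell by day 3 (log2 fold change −1.97, SE 0.23, adjusted p = 1.11e-05) and was lower again at day 7 (log2 fold change −3.54, SE 0.23, adjusted p = 7.98e-08 against control, and −1.57 against day 3, adjusted p = 7.57e-04). Slc5a1 encodes SGLT1, the high-affinity carrier of the late proximal tubule and the intestine. Its mean went from 15.3 ± 0.776 FPKM to 7.85 ± 2.13 and then 4.84 ± 0.591, and it fell at both times (−0.91; −1.49, adjusted p = 7.77e-06). The days overlapped, and the call between them (−0.57, adjusted p = 0.0293) was lost in 5 of the 11 fits that leave out a library (adjusted p of 0.054 to 0.0915), namely day 3 replicate 2 or 4 and day 7 replicate 1, 2 or 3. The fit of both groups alone lost that call too (adjusted p = 0.0579). The ratio of Slc5a2 to Slc5a1 FPKM ranged from 5.22 to 6.6 over the control libraries, from 2.52 to 3.31 at day 3 and from 1.18 to 1.55 at day 7, with no overlap between groups; this ratio was not tested.

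Sodium-coupled carriers of other sugars and of inositol fell as well, except for one. Slc5a10 (SGLT5, a mannose and fructose carrier of the kidney) stood at 24, 40.5 and 29.4 FPKM in the control libraries, 2.66, 5.98, 2.92 and 6.3 at day 3 and 2.81, 2.79, 2.41 and 3.47 at day 7. It was lower in every obstructed library than in any control library (log2 fold change −2.60, SE 0.25, adjusted p = 2.69e-06 at day 3; −3.03 at day 7). Slc5a11 (SMIT2, a myo-inositol carrier) had 10.3, 11.8 and 9.49 FPKM in the control libraries, 2.24, 4.31, 1.94 and 3.52 at day 3 and 1.13, 0.974, 0.412 and 0.909 at day 7. Its fall deepened between the days (−1.56 at day 3, −2.65 at day 7, −1.08 between them, adjusted p = 0.00258), without overlap. Slc5a9 (SGLT4), at 2.48 ± 0.295 FPKM in control, fell by a log2 fold change of −0.70 and −1.35. The exception was Slc5a3, which encodes SMIT1, the sodium and myo-inositol carrier that is induced by hypertonicity. It stood at 12.8, 7.09 and 14.6 FPKM in the control libraries, 11.8, 12.2, 13.5 and 8.91 at day 3 and 15.7, 10.6, 25.5 and 16.3 at day 7. These groups overlapped, and the gene was called at neither time (0.05, adjusted p = 0.883 and 0.52, adjusted p = 0.105), although at day 7 it had the highest mean of its family. In TPM it was called higher at day 7 (1.02, adjusted p = 0.00652), as it was without day 7 replicate 2 (0.71, adjusted p = 0.027).

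The sodium-coupled monocarboxylate carriers fell steeply. Slc5a8, which encodes SMCT1, a carrier of lactate, pyruvate, butyrate and nicotinate (ENSMUSG00000020062.7, chromosome 10, 88885992 to 88929515), stood at 21.2, 18.7 and 22.9 FPKM in the control libraries, 2.9, 5.57, 3.45 and 3.63 at day 3 and 1.86, 1.42, 1.57 and 1.85 at day 7. There was no overlap between any groups, with 18.6% of the control mean left at day 3 and 8.02% at day 7 (log2 fold change −3.03, SE 0.16, adjusted p = 2.39e-08). Slc5a12 (SMCT2), the low-affinity carrier of the same kind, had 14.6, 20.8 and 17.4 FPKM in the control libraries, 4.91, 8.1, 8.75 and 4.3 at day 3 and 1.6, 1.46, 2.43 and 4.14 at day 7. Day 7 replicate 4 was the highest of its group and still below every day 3 library (−1.34 at day 3, −2.5 at day 7, adjusted p = 4.99e-06). Slc5a6, the multivitamin carrier of biotin and pantothenate, changed least among the members of its family that fell (3.86 ± 0.33, 2.78 ± 0.359 and 2.5 ± 0.0757 FPKM, −0.37 and −0.47), and it was called at neither time in TPM (−0.05, adjusted p = 0.739 and −0.13, adjusted p = 0.34). In all, 8 of the 9 Slc5a members fell at each time and none rose, with medians of −1.34 and −2.5. Of all genes, 21% were called lower and 44.4% higher at day 3, and 23.5% and 46.3% at day 7.

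**Figure D2:**
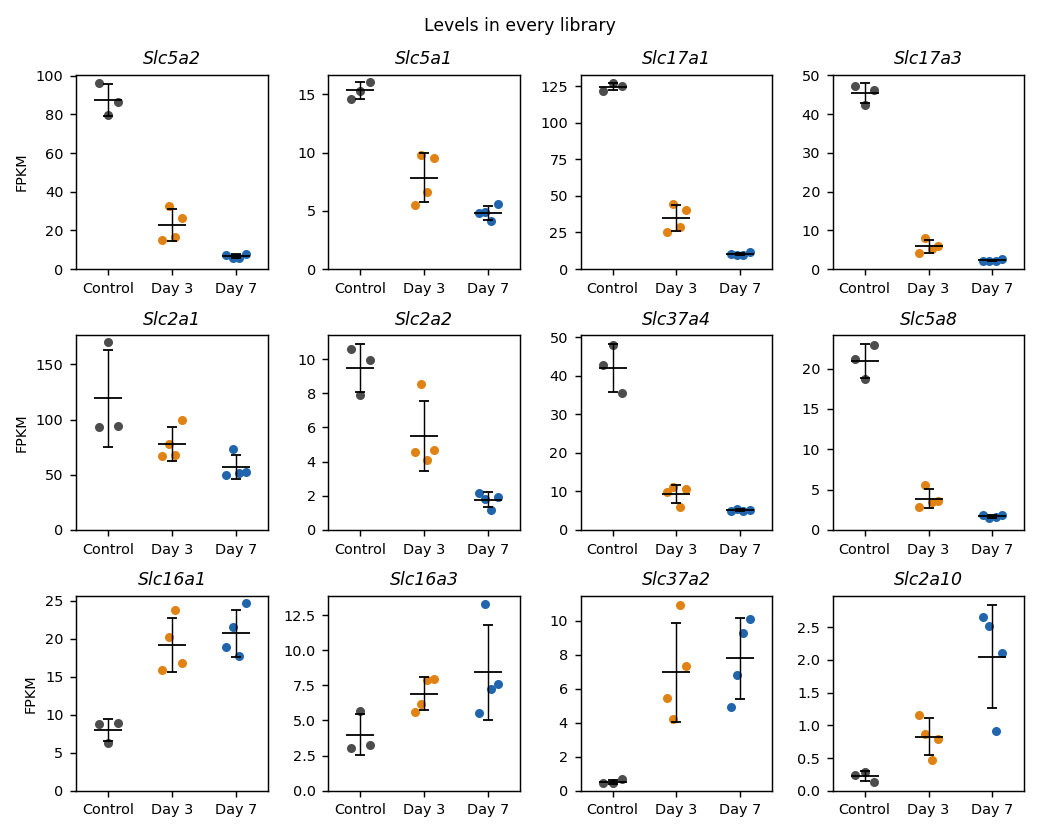
FPKM of 12 transporter genes in every library, with group mean (bar) and SD (whiskers); each panel has its own axis from 0. The first 8 genes fell in both comparisons with control and the last 4 rose, and the day 7 libraries of Slc5a2, Slc17a1 and Slc17a3 lie below all of day 3.

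Facilitative glucose carriers divided into falls and rises. Slc2a1 encodes GLUT1, the widely expressed basal glucose carrier (ENSMUSG00000028645.11, chromosome 4, 119108711 to 119137983). It had the highest FPKM of its family in every group, at 93.1, 170 and 94.2 FPKM in the control libraries, 67, 78.2, 67.6 and 100 at day 3 and 50, 73, 51.8 and 52.2 at day 7. Control replicate 2 was far above the other control libraries, as it was in the injured tubule marker sum, whose part was not tested, and the control and day 3 ranges overlapped. That sum did not follow most of its 6 markers. Its mean went from 478 FPKM to 687 and 525, while their median log2 fold change was 2.76 and 2.86. Slc2a1 passed as lower at day 3 (log2 fold change −0.56, SE 0.22, adjusted p = 0.0424) but not without control replicate 2 (−0.28, adjusted p = 0.223) or in TPM (−0.14, adjusted p = 0.575), nor in the fit of both groups alone (adjusted p = 0.0576). Leaving out day 3 replicate 1, 2 or 3 (adjusted p = 0.0954, adjusted p = 0.0678 and adjusted p = 0.0957) or day 7 replicate 1 or 4 (adjusted p = 0.0505 and adjusted p = 0.0533) ended it too. At day 7 it was lower without overlap (log2 fold change −1.01, SE 0.22, adjusted p = 0.00138). Slc2a2 encodes GLUT2, through which glucose leaves the early proximal tubule cell. It stood at 10.6, 7.89 and 9.98 FPKM in the control libraries, 4.56, 8.53, 4.11 and 4.71 at day 3 and 2.18, 1.82, 1.18 and 1.91 at day 7. Day 3 replicate 2 lay within the control range while the other day 3 libraries were below it, so the day 3 groups overlapped (−0.73, adjusted p = 0.00779; −0.40, adjusted p = 0.158 in TPM), and by day 7 all libraries were below all others (log2 fold change −1.93, SE 0.21, adjusted p = 4.43e-06).

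Slc2a4 encodes GLUT4, the insulin-regulated carrier of muscle and fat. It stood at 10.8, 15.5 and 13 FPKM in the control libraries, 3.08, 3, 1.44 and 3.65 at day 3 and 1.35, 1.96, 1.79 and 1.49 at day 7. Every obstructed library was below every control library (−1.92 at day 3, −2.41 at day 7, adjusted p = 5.27e-07). Slc2a5 encodes the fructose carrier GLUT5. It had 9.67, 11 and 9.53 FPKM in the control libraries, 1.32, 2.71, 0.937 and 1.87 at day 3 and 0.543, 0.589, 0.569 and 0.84 at day 7. With 6.3% of the control mean left at day 7 it was the steepest fall of its family (log2 fold change −2.76, SE 0.18, adjusted p = 9.05e-08), and the days did not overlap. Slc2a12 (GLUT12) was lower at both times (2.35 ± 0.348, 0.914 ± 0.239 and 0.56 ± 0.052 FPKM; −0.81 and −1.10). Of the low-level members, Slc2a9, the urate carrier GLUT9, was lower at day 3 (−0.43, adjusted p = 0.0217) and not called at day 7 (−0.15, adjusted p = 0.393), with 3.02 ± 0.307, 1.98 ± 0.277 and 2.68 ± 0.73 FPKM. The proton-coupled myo-inositol carrier Slc2a13 showed the same calls at under 1 FPKM in mean (−0.42, adjusted p = 0.0189 and −0.05, adjusted p = 0.765). The day 3 call of Slc2a9 was lost without control replicate 2 (−0.39, adjusted p = 0.0718) or replicate 3 (−0.42, adjusted p = 0.0577) and in TPM (−0.17, adjusted p = 0.435), and that of Slc2a13 without control replicate 3 (−0.29, adjusted p = 0.102) and in TPM (−0.41, adjusted p = 0.128). At day 7 both were called lower with median centring (−0.45, adjusted p = 0.016 for Slc2a9 and −0.35, adjusted p = 0.0328 for Slc2a13) and with quantile normalization (−0.48, adjusted p = 0.0124 and −0.39, adjusted p = 0.0201). The intracellular carrier Slc2a8 (GLUT8) was lower at day 7 (−0.42, adjusted p = 0.0331) and not called at day 3 (−0.23, adjusted p = 0.226), the day 7 call being lost without control replicate 2 (−0.26, adjusted p = 0.164), day 7 replicate 1 (−0.39, adjusted p = 0.0716) or day 7 replicate 3 (−0.38, adjusted p = 0.0709), and in TPM (−0.04, adjusted p = 0.85). It was called lower at day 3 with median centring (−0.56, adjusted p = 0.00924) and quantile normalization (−0.55, adjusted p = 0.0106).

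The 3 Slc2a members that rose were all under 2 FPKM in control. Slc2a6 encodes GLUT6, a carrier of lysosomal membranes that is induced in inflammatory macrophages. It stood at 0.981, 1.37 and 1.11 FPKM in the control libraries, 3.45, 4.6, 5.15 and 5.88 at day 3 and 3.4, 3.97, 4.3 and 3.32 at day 7. The control libraries were well below all others, and the day 3 and day 7 ranges overlapped (log2 fold change 1.41, SE 0.15, adjusted p = 4.68e-06 at day 3; 1.14 at day 7). Slc2a3 encodes GLUT3, the high-affinity glucose carrier of neurons and of many white blood cells. Its levels were 1.26, 1.54 and 1.13 FPKM in the control libraries, 2.59, 2.15, 2.78 and 1.78 at day 3 and 2.52, 2.59, 2.57 and 2.17 at day 7. In these gene values the groups did not overlap with control (0.52 at day 3, adjusted p = 0.00246; 0.58 at day 7, adjusted p = 9.44e-04), but the calls were lost with median centring (0.18, adjusted p = 0.229 and 0.28, adjusted p = 0.0692) and with quantile normalization (0.22, adjusted p = 0.15 and 0.26, adjusted p = 0.0938). The only listed transcript of the gene, Slc2a3-201, did not show the rise clearly. Control libraries averaged 1.86 ± 0.284 FPKM for this transcript, day 3 libraries 2.25 ± 1.31 and day 7 libraries 2.07 ± 1.34. Transcript values were not tested. The rises of Slc2a6 and Slc2a3 in the gene values stood beside those of all 12 macrophage markers. The sums of these markers are given above, and their part was not tested. The macrophage sum was highest in replicate 3 at day 3 and again in replicate 3 at day 7. Slc2a6 was highest in replicate 4 and then replicate 3, and Slc2a3 in replicate 3 and then replicate 2.

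Slc2a10 encodes GLUT10, a carrier linked to dehydroascorbate transport whose loss in humans causes arterial tortuosity syndrome. It stood at 0.245, 0.285 and 0.137 FPKM in the control libraries, 1.16, 0.862, 0.477 and 0.798 at day 3 and 2.65, 2.52, 0.919 and 2.1 at day 7. Day 7 replicate 3 was far below its group, as it was for the fibroblast and pericyte markers (1490 FPKM against 3510 to 3800 in the other day 7 libraries), and lay within the day 3 range; the part of those markers was not tested. It was the single member that passed as higher at day 7 than at day 3 (log2 fold change 0.71, SE 0.19, adjusted p = 0.023), where 7.37% of all genes were called higher. That call was lost without day 3 replicate 2, 3 or 4 or day 7 replicate 1, 2 or 4, which is 6 of the 11 fits that leave out a library (adjusted p of 0.0501 to 0.0728). Against control it rose at day 7 (log2 fold change 1.28, SE 0.20, adjusted p = 1.08e-04) and at day 3 (0.57, adjusted p = 0.0255), the latter not without control replicate 1 (adjusted p = 0.0551) or 3 (adjusted p = 0.0809), without day 3 replicate 1 (adjusted p = 0.0633) or 2 (adjusted p = 0.0501), with median centring (0.23, adjusted p = 0.319) or with quantile normalization (0.24, adjusted p = 0.318).

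Among proton-coupled monocarboxylate transporters, the lactate carriers MCT1 and MCT4 were higher and MCT2 lower. Slc16a1 encodes MCT1, which moves lactate and pyruvate in either direction (ENSMUSG00000032902.1, chromosome 3, 104638668 to 104658462). It stood at 8.8, 6.33 and 8.89 FPKM in the control libraries, 15.9, 20.2, 23.8 and 16.8 at day 3 and 18.9, 21.6, 17.7 and 24.7 at day 7. All obstructed libraries were above all control libraries (log2 fold change 1.16, SE 0.17, adjusted p = 6.23e-05 at day 3; log2 fold change 1.27, SE 0.17, adjusted p = 2.35e-05 at day 7), and both days overlapped. Slc16a3 encodes MCT4, the lactate exporter of glycolytic cells. Its levels were 3.06, 5.67 and 3.24 FPKM in the control libraries, 5.61, 6.18, 7.87 and 7.96 at day 3 and 5.54, 13.3, 7.21 and 7.63 at day 7. Control replicate 2 overlapped with the obstructed libraries and day 7 replicate 2 was the highest of all. The rise passed at day 3 (0.69, adjusted p = 0.0277) and day 7 (0.89, adjusted p = 0.00648), but not with median centring (0.36, adjusted p = 0.25 and 0.59, adjusted p = 0.0614) or quantile normalization (0.36, adjusted p = 0.249 and 0.60, adjusted p = 0.057). The day 3 call was also lost without control replicate 1 (adjusted p = 0.111) or 3 (adjusted p = 0.0985) and without day 3 replicate 3 (adjusted p = 0.065) or 4 (adjusted p = 0.0636).

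Slc16a7 encodes MCT2, the carrier with the highest affinity for lactate and pyruvate. It ranged from 8.88 to 21.1 FPKM in control, where replicate 2 was lowest, from 3.73 to 5.1 at day 3 and from 3.38 to 4.69 at day 7, below all controls (−1.64 and −1.72, adjusted p = 2.95e-05). The ratio of Slc16a1, the rising proton-coupled carrier, to Slc5a8, the falling sodium-coupled one, was 0.339 to 0.416 in control, 3.63 to 6.89 at day 3 and 10.1 to 15.2 at day 7. This ratio was not tested either. Of the accessory glycoproteins that bring MCTs to the plasma membrane, embigin (Emb) rose from 9.24 ± 0.633 to 19.4 ± 2.35 and 19 ± 2.4 FPKM (0.99 and 0.96, adjusted p = 3.49e-05). Basigin (Bsg), which was picked for its role after its values were seen, fell from 173 ± 33.6 to 118 ± 24.2 and 120 ± 20.2 FPKM (−0.55, adjusted p = 0.022 and −0.53, adjusted p = 0.0245).

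Both other Slc16a members that rose are not lactate carriers by their known roles. Slc16a10 encodes TAT1, which moves aromatic amino acids and thyroid hormones. It stood at 5.87, 4.6 and 5.8 FPKM in the control libraries, 8.58, 9.28, 11.5 and 10.7 at day 3 and 6.74, 9.17, 8.48 and 9.58 at day 7. Control libraries were below all others (0.78 at day 3, adjusted p = 3.98e-04; 0.56 at day 7, adjusted p = 0.00356), though the day 7 call was lost with median centring (0.26, adjusted p = 0.152) and quantile normalization (0.29, adjusted p = 0.0981). Slc16a6, which encodes MCT7, a ketone body carrier in zebrafish liver, had 3.32, 2.37 and 3.48 FPKM in the control libraries, 6.99, 7.03, 11.5 and 5.31 at day 3 and 6.38, 6.06, 9.22 and 7.31 at day 7. It rose at both times (1.06 at day 3, 1.02 at day 7, adjusted p = 9.04e-04). Day 3 replicate 3, the library with the highest macrophage marker sum (8390 FPKM), was also its highest. Day 3 replicate 4 was its lowest, at a marker sum of 6050 FPKM. Replicate 2, with the lowest marker sum of day 3 (5090 FPKM), stood at 7.03 FPKM for Slc16a6. At day 7, replicate 3 was the highest in both. The part of those cells was not tested.

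The other Slc16a members were lower or not called. Slc16a9 (MCT9, tied to carnitine in humans) had 18.3, 14.6 and 18.1 FPKM in the control libraries, 3.82, 6.19, 3.09 and 4.71 at day 3 and 2.46, 2.33, 1.84 and 2.86 at day 7. It was lower still at day 7 than at day 3 (−1.75 and −2.42; −0.67 between the days, adjusted p = 0.0179, and adjusted p = 0.0512 without day 3 replicate 4). Slc16a4 (MCT5) had 9.66, 7.48 and 10.8 FPKM in the control libraries, 1.54, 3.07, 1.69 and 1.6 at day 3 and 1.88, 0.916, 0.792 and 1.34 at day 7. It fell without overlap with control at both times (−1.81 and −2.22, adjusted p = 1.09e-06). Slc16a14 (MCT14) had 6.59, 5.34 and 6.5 FPKM in the control libraries, 1.1, 1.64, 0.928 and 0.851 at day 3 and 0.379, 0.473, 0.629 and 0.579 at day 7. Of its control mean, 18.4% was left at day 3 and 8.38% at day 7 (−2.24, adjusted p = 4.43e-08).

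Slc16a12, a creatine carrier, fell from 17.1 ± 4.52 to 6.54 ± 2.19 and 3.65 ± 0.75 FPKM (−1.28 and −1.94). Slc16a11 and Slc16a13 are neighbours on chromosome 11 that point towards each other, with 371 bases between their ends. They fell together: Slc16a11 by log2 fold changes of −1.04 and −1.19 from 2.76 ± 0.172 FPKM, and Slc16a13 of −1.24 and −1.75 from 14.4 ± 1.22 FPKM. Their FPKM ratio stayed within 5.04 to 8.2 over all libraries. Slc16a5 (MCT6) ranged from 1.84 to 6.49 FPKM at day 3, wider than in control (3.4 to 5.67), and was called at neither time (−0.28, adjusted p = 0.417 and −0.68, adjusted p = 0.0513), although the day 7 libraries were all below control. At day 7 it was called lower with median centring (−0.98, adjusted p = 0.00859), quantile normalization (−1.02, adjusted p = 0.00721), a pseudocount of 0.1 (adjusted p = 0.0463), a minimum of 2 FPKM (adjusted p = 0.0497) and both groups alone (adjusted p = 0.0142), and without day 3 replicate 3 (adjusted p = 0.0325), day 3 replicate 4 (adjusted p = 0.0154) or day 7 replicate 4 (adjusted p = 0.0317). In all, 8 of 13 Slc16a members fell and 4 rose at each time (61.5% and 30.8%), with medians of −1.24 and −1.56. Of all genes, 21% were called lower and 44.4% higher at day 3, and 23.5% and 46.3% at day 7.

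**Figure D3:**
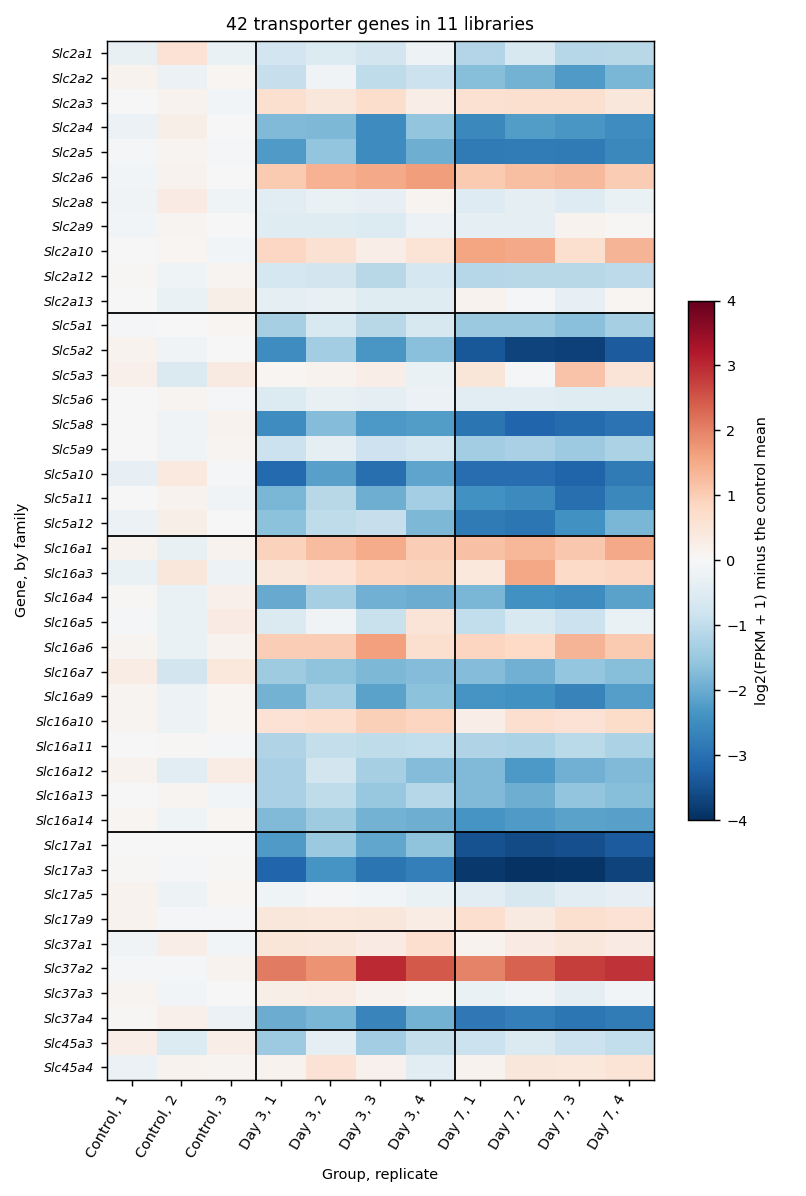
Difference of log2(FPKM + 1) from the control mean for 42 of the genes (rows, ordered by family) in the 11 libraries (columns); blue is lower and red higher, and lines part families and groups. Slc17a3, Slc5a2 and Slc17a1 are the darkest blue rows at day 7 and Slc37a2 is the darkest red.

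The urate and phosphate carriers of the Slc17a family held the steepest fall of all 43 members. Slc17a1 encodes NPT1, a carrier of urate and other organic anions on the luminal side of the proximal tubule (ENSMUSG00000021335.13, chromosome 13, 23867750 to 23895730). It stood at 122, 127 and 125 FPKM in the control libraries, 25.4, 44.2, 28.9 and 40.1 at day 3 and 10.2, 9.52, 9.9 and 11.6 at day 7. Control libraries lay close together, and the groups did not overlap (log2 fold change −1.85, SE 0.17, adjusted p = 1.53e-06 at day 3; log2 fold change −3.48, SE 0.17, adjusted p = 1.5e-08 at day 7; −1.63 between the days, adjusted p = 1.47e-04). Slc17a3, its neighbour 7033 bases away on the same strand, encodes NPT4, a urate and organic anion carrier (ENSMUSG00000036083.15, chromosome 13, 23839434 to 23860716). It had 47.3, 42.4 and 46.3 FPKM in the control libraries, 4.18, 8.11, 5.13 and 5.95 at day 3 and 2.18, 2.02, 2.06 and 2.56 at day 7. Of the control mean, 12.9% was left at day 3 and 4.86% at day 7, again with no overlap between groups (log2 fold change −2.79, SE 0.16, adjusted p = 6.89e-08 and log2 fold change −3.86, SE 0.16, adjusted p = 6.57e-09). The FPKM ratio of Slc17a1 to Slc17a3 was 2.59 to 2.99 in control, 5.45 to 6.73 at day 3 and 4.52 to 4.8 at day 7, so Slc17a3 was the lower of the pair by a wider margin after obstruction.

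Both other Slc17a members are carriers of intracellular vesicles. Slc17a5 encodes sialin, the sialic acid exporter of lysosomes. It was not called at day 3 (12 ± 1.6 to 10.7 ± 0.618 FPKM, −0.15, adjusted p = 0.287) and was lower at day 7 (8.47 ± 0.844 FPKM, −0.45, adjusted p = 0.004), though not in TPM (−0.02, adjusted p = 0.896). With median centring (−0.48, adjusted p = 0.00294) and quantile normalization (−0.41, adjusted p = 0.00912) it was called lower at day 3 as well. Slc17a9 encodes VNUT, which loads ATP into vesicles. It stood at 0.378, 0.17 and 0.201 FPKM in the control libraries, 0.705, 0.682, 0.716 and 0.533 at day 3 and 0.985, 0.597, 0.951 and 0.85 at day 7, below 1 FPKM throughout. The control libraries were all below the others (0.41, adjusted p = 0.00385 and 0.56, adjusted p = 3.79e-04), but with quantile normalization the gene was called at neither time (0.08, adjusted p = 0.467 and 0.17, adjusted p = 0.132), and with median centring not at day 3 (0.08, adjusted p = 0.532).

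Sugar phosphate exchangers of the endoplasmic reticulum changed in opposite directions. Slc37a4 encodes the glucose 6-phosphate transporter that works with glucose-6-phosphatase (ENSMUSG00000032114.9, chromosome 9, 44396852 to 44402968). It stood at 42.8, 48 and 35.6 FPKM in the control libraries, 9.77, 11.1, 5.94 and 10.5 at day 3 and 4.96, 5.5, 4.78 and 5.18 at day 7. All groups were apart (log2 fold change −2.09, SE 0.18, adjusted p = 9.34e-07 at day 3; log2 fold change −2.81, SE 0.18, adjusted p = 6.57e-08 at day 7; −0.73 between the days, adjusted p = 0.011). Its partner G6pc, the catalytic subunit, went from 111 ± 13.8 to 13.4 ± 6.39 and 3.32 ± 0.793 FPKM (−3.05 and −4.71, adjusted p = 4.31e-08). Slc37a2 encodes a phosphate-linked exchanger that is abundant in macrophages (ENSMUSG00000032122.15, chromosome 9, 37227585 to 37255738). It had 0.444, 0.431 and 0.665 FPKM in the control libraries, 5.44, 4.24, 10.9 and 7.31 at day 3 and 4.94, 6.79, 9.25 and 10.1 at day 7. This was the largest rise of all 43 members, 13.6 times the control mean at day 3 and 15.1 times at day 7 (log2 fold change 2.33, SE 0.26, adjusted p = 8.85e-06; log2 fold change 2.5, SE 0.26, adjusted p = 3.82e-06), and both days overlapped. Day 3 replicate 3, with the highest macrophage marker sum, held the highest Slc37a2 level, and day 3 replicate 2, with the lowest sum of its group (5090 FPKM), held the lowest of its group. At day 7 the highest sum was that of replicate 3 (7160 FPKM), while the highest Slc37a2 level was that of replicate 4, whose sum was 6500 FPKM. Whether the marker change accounts for the rise was not tested.

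Slc37a1, which exchanges glucose 6-phosphate for phosphate, stood at 1.72, 2.63 and 1.78 FPKM in the control libraries, 3.23, 3.09, 2.82 and 3.82 at day 3 and 2.29, 2.82, 3.16 and 2.76 at day 7. It was higher at day 3 without overlap (0.49, adjusted p = 0.00632; 0.15, adjusted p = 0.331 with median centring, and 0.17, adjusted p = 0.308 with quantile normalization) and just missed the threshold at day 7 (0.31, adjusted p = 0.052; it was called without control replicate 2, 0.44, adjusted p = 0.0099, day 3 replicate 3, adjusted p = 0.049, day 3 replicate 4, adjusted p = 0.0474, or day 7 replicate 1, adjusted p = 0.0321, with a pseudocount of 0.1, adjusted p = 0.0447, and in TPM with mitochondrial genes, 0.82, adjusted p = 4.8e-04, or without them, 0.43, adjusted p = 0.0246). Slc37a3 had 5.69, 4.74 and 5.17 FPKM in the control libraries, 6.35, 6.65, 5.75 and 5.45 at day 3 and 4.15, 4.64, 3.86 and 4.69 at day 7. It was called in neither comparison with control (0.18, adjusted p = 0.155 and −0.22, adjusted p = 0.093) and lower at day 7 than at day 3 (−0.40, adjusted p = 0.0186, lost without day 3 replicate 1, adjusted p = 0.0555, day 3 replicate 2, adjusted p = 0.0646, or day 7 replicate 1, adjusted p = 0.0534). Against control it was called lower at day 7 with median centring (−0.52, adjusted p = 7.93e-04) and quantile normalization (−0.53, adjusted p = 7.01e-04), and higher at day 3 in TPM (0.61, adjusted p = 8.26e-04). In the Slc45a family, Slc45a3 (prostein, known from prostate) stood at 7.06, 3.51 and 7.04 FPKM in the control libraries, 1.43, 4.12, 1.53 and 2.43 at day 3 and 2.65, 3.46, 2.65 and 2.35 at day 7. Its control replicate 2 and day 3 replicate 2 overlapped, and it was lower at both times (−1.04, adjusted p = 0.00393 and −0.82, adjusted p = 0.0145), the day 7 call being lost without control replicate 1 (−0.68, adjusted p = 0.0663) or 3 (−0.68, adjusted p = 0.0652) and in TPM (−0.51, adjusted p = 0.162). Slc45a4 had 3.67, 5.05 and 5.03 FPKM in the control libraries, 5.09, 7.3, 5.28 and 3.05 at day 3 and 5.16, 6.55, 6.5 and 7.11 at day 7. Control and day 3 overlapped while day 7 lay above control, and the gene was called at neither time (adjusted p = 0.651 and adjusted p = 0.103). It was called higher at day 7 in TPM (0.90, adjusted p = 0.00444), in the fit of both groups alone (adjusted p = 0.0349) and without day 3 replicate 4 (adjusted p = 0.0366).

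**Figure D4:**
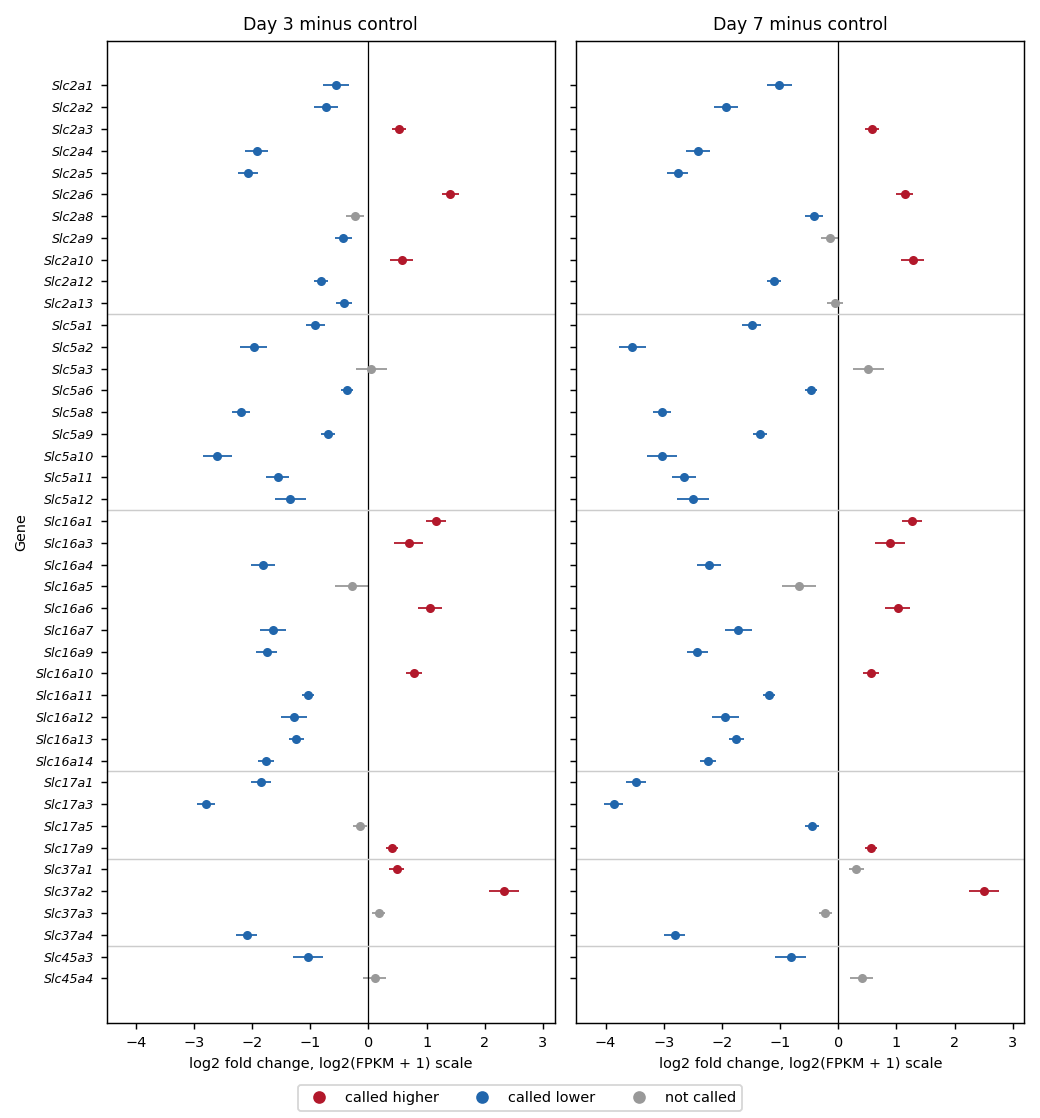
Log2 fold changes of 42 of the genes at day 3 and day 7 relative to control on the log2(FPKM + 1) scale, with standard errors as whiskers and the limma call as colour. Slc37a2 stands farthest right in both panels (2.33 and 2.5) and Slc17a3 farthest left (−2.79 and −3.86).

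Between the days, the direct comparison called 16 of the 43 members, 15 lower and 1 higher at day 7 (34.9% and 2.33%), where 15.7% of all genes were called, 8.37% lower and 7.37% higher. Of the 15, 6 belong to Slc5a, 3 to Slc16a and 2 each to Slc2a, Slc17a and Slc37a. The deepest were those of Slc17a1 (−1.63), Slc5a2 (−1.57), Slc2a2 (−1.19), Slc5a12 (−1.16), Slc5a11 (−1.08) and Slc17a3 (−1.07). Of the 18 proximal tubule markers, 16 were also lower at day 7 than at day 3. The fall was not the same in every day 3 library: in 19 of the 27 members lower at day 3, replicate 2 was the highest of the day 3 libraries and in none the lowest, and replicates 1 and 3 were the lowest in 12 and 11. The proximal tubule marker sum was likewise highest in replicate 2 and lowest in replicate 3, at 1610, 2370, 1270 and 2100 FPKM in day 3 replicates 1 to 4. Without Kap it was 803, 1270, 657 and 1030 FPKM. Without day 3 replicate 2, the comparison between the days called 11 members lower. All genes called lower went from 1124 of 13428 to 615 of 13432 when that library was left out. The call of Slc16a13 between the days (−0.51, adjusted p = 0.0155) was lost without that library (adjusted p = 0.053), and that of Slc16a14 (−0.48, adjusted p = 0.02) without it (adjusted p = 0.0549) or without day 7 replicate 1 (adjusted p = 0.0632). Of members not called between the days, Slc16a12 (with a pseudocount of 0.1, −0.79, adjusted p = 0.0463; also without control replicate 2 or day 3 replicate 4), Slc2a12 (with quantile normalization, −0.36, adjusted p = 0.0253; also without day 3 replicate 3), Slc2a4 (without day 3 replicate 3, −0.68, adjusted p = 0.0059) and Slc17a5 (without control replicate 2, −0.31, adjusted p = 0.046) were called lower at day 7 in those fits. Slc2a13 was called higher (with median centring, 0.40, adjusted p = 0.0466; also without day 7 replicate 3).

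Enzymes and regulators around these carriers were taken as 7 lists. Their counts stand beside 44.4% of all genes called higher and 21% lower at day 3, and 46.3% and 23.5% at day 7. Of 11 genes of gluconeogenesis and glucose release, 5 fell and 2 rose at day 3, and 7 fell and 2 rose at day 7 (median −0.37 and −0.69). After G6pc, the steepest falls were those of fructose-1,6-bisphosphatase (Fbp1, 405 ± 67.2 to 18.8 ± 4.33 FPKM, −4.37) and phosphoenolpyruvate carboxykinase (Pck1, −3.83), both at day 7. Mitochondrial Pck2 (0.78 at day 3) and glycogen phosphorylase Pygb (0.74 at day 7) rose. Of 11 genes of fructose, sorbitol and inositol metabolism, 7 and then 8 fell and 1 and then 0 rose (median −1.92 and −2.70), among them the inositol oxygenase Miox (−5.27 at day 7) and sorbitol dehydrogenase (Sord, −3.73 at day 7). Isyna1, which makes inositol phosphate from glucose 6-phosphate, rose at day 3 (0.33, adjusted p = 0.0132) and was not called at day 7 (0.05). Fbp1, Pck1 and Miox, and Slc22a6, Slc22a8 and Hnf4a named next, also stand on the proximal tubule marker list.

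Glycolytic genes moved in both directions. Of 19 genes of glucose trapping and glycolysis, 11 fell and 4 rose at day 3 and 13 fell and 3 rose at day 7 (median −0.50 and −0.65). The hexokinases Hk3 (0.932 ± 0.202 to 11.1 ± 2.11 FPKM, 2.64 at day 3) and Hk2 (5.98 ± 0.786 to 28.3 ± 6.17 FPKM, 2.05 at day 7) and the phosphofructokinase Pfkp (0.83 at day 3) rose, while the D-lactate dehydrogenase Ldhd (−3.90 at day 7), aldolase C (Aldoc, −1.59 at day 3) and the phosphofructokinase Pfkm (−1.31 at day 7) fell. Of 14 genes of lactate, pyruvate and ketone metabolism, 12 fell at each time and 1 and then 0 rose (median −1.25 and −1.58). The ketone body enzymes Bdh2 (−2.94), Acat1 (−2.60) and Oxct1 (−2.57) were lower at day 7, and the pyruvate dehydrogenase kinase Pdk4 rose at day 3 (31.2 ± 4.12 to 59.8 ± 6.63 FPKM, 0.92).

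Other urate genes were mostly lower, with Xdh higher at both times. Of 9 tested genes of urate production and carriage, 6 fell at each time, 2 rose at day 3 and 1 at day 7 (median −2.12 and −2.59). The organic anion transporters Slc22a7 (−5.22), Slc22a6 (−4.46) and Slc22a8 (−4.45) fell, with these values at day 7. Xanthine dehydrogenase (Xdh), which makes urate, rose from 3.84 ± 0.518 to 14.2 ± 0.467 and 20.4 ± 3.38 FPKM (2.14 at day 7, adjusted p = 6.39e-08), and the exporter Abcc4 rose at day 3 (0.67). Of 13 partners and regulators of the carriers, 6 rose at each time and 4 and then 5 fell (median 0.24 and 0.11), so the share higher was near that of all genes. The scaffold Pdzk1 (−3.56) and Pdzk1ip1, the small membrane protein that activates SGLT2 (−1.79), fell, as did the GLUT4 tether Aspscr1 (−0.60), all at day 7. The kinase Sgk1 (1.80) and the arrestin Arrdc4, which limits glucose uptake (1.58), rose at day 7, as did Emb. Of 14 tested transcription factors of tubule identity and hypoxia, 9 fell and 4 rose at day 3 and 8 fell and 4 rose at day 7 (median −0.73 and −0.74). Hnf4a (−3.08 at day 7), a factor of proximal tubule cell identity, fell. Myc (2.36 at day 7), the glucose-responsive factor Mlxip (1.10 at day 3) and Hif1a (0.90 at day 7), the oxygen-regulated subunit of the hypoxia factor, rose.

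Promoter windows of 250 bases before to 50 after the start site were at hand for 31 of the 43 members (RefSeq, GRCm38.p6). Because several carriers of glucose and lactate are known targets of hypoxia factors, whose core site is ACGTG, a stretch around that motif is shown for 4 members, picked after their values were seen: Slc16a3 and Slc16a1, which rose, and Slc2a1 and Slc5a1, which fell. Each reads 5′ to 3′, and capitals mark the motif on either strand.
Slc16a3, chr11:120949034-120949063, plus strand: gcggtgACGTGcgcgggggACGTGccgcgc
Slc16a1, chr3:104638452-104638481, plus strand: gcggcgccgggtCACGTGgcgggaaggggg
Slc2a1, chr4:119108697-119108725, plus strand: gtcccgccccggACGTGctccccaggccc
Slc5a1, chr5:33104064-33104093, plus strand: ccttttctgcctCACGTGggactccgtggc
The Slc16a3 stretch held 2 copies on the plus strand, and those of Slc16a1 and Slc5a1 held CACGTG, in which the 2 matches, 1 per strand, overlap. The 31 members have 38 windows in all, and 7 of the 38 held ACGTG on either strand, beside 19.6% of all 32851 windows. These belong to 7 members: 3 of the 20 lower at day 7, 3 of the 6 higher and 1 of the 5 not called. The HNF4 core CAAAG was found in 16 of the 38 windows (53.9% of all windows). A match describes the letters of the window and does not show binding.

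The table per transcript held 97 transcripts of the 43 genes, and 18 genes had a single one. Estimates of transcripts of one gene share reads, and their sums differed from the FPKM per gene, so shares are given as a description. Slc2a1-201 held 94.6% ± 1.17 of the summed transcript FPKM of Slc2a1 in control, 95.7% ± 1.44 at day 3 and 96.2% ± 1.37 at day 7, and was the leading transcript throughout. In Slc17a3, transcript 203 held 69.6% ± 3.29 in control, 47.9% ± 6.57 at day 3 and 31.6% ± 22 at day 7, while transcript 201 held 26.1% ± 3.63, 39.4% ± 6.63 and 45.2% ± 8.57. In Slc5a2, transcript 202 held 94.1% ± 3.58, 78.2% ± 15.5 and 89.2% ± 9.82. Shares of the weaker genes scattered widely between libraries, as for Slc16a3-201 in control (46.8% ± 43.9, n = 3).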

How the data were processed

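RNA-seq libraries of 11 samples were analysed from the FPKM values the authors deposited per gene and per transcript, per the file headers. Among tools, cutadapt, HISAT2 and StringTie are listed in the submitters' processing notes, with the build GRCm38 and no versions. Of the counting settings and annotation, nothing is given in the sources used here. The lowest value that any listed gene reached as its highest group mean was 0.5002 FPKM. A gene under that level in control was thus listed only if it was higher after obstruction. Low values did not fall on whole-read steps (at best 23.7% to 46.2% of low values within 0.05 reads of a whole number), so the depth per sample is unknown. Groups and replicate numbers came from the sample titles.

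Tests used log2(FPKM + 1) without further scaling for the 13428 genes whose mean over all samples reached 0.5 FPKM. A single limma 3.58.1 fit (R 4.3.3) held all 3 groups and used moderated variances with an intensity trend. A gene was called where its Benjamini-Hochberg adjusted p, taken over all genes tested in a comparison, was under 0.05, and adjusted p-values are from limma throughout. Fold changes on this scale understate the change of low genes. The procedure was tested on simulated data in which only a small part of the genes was changed, and at day 3 alone. In the real data most genes were called against control, so that test does not bear on calls under such conditions. Alternatives were a pseudocount of 0.1, no filter or a minimum of 2 FPKM, median centring, quantile normalization, rescaling to TPM with and without mitochondrial genes, both groups alone, no trend, a replicate block and leaving out each library. Both comparisons with control share the control libraries.

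The members and lists were chosen with earlier results of these data known. Values in every sample are given for members with the 10 largest called rises and falls per comparison with control (6 between the days), the highest of each family, and those at 5 FPKM or more called in neither comparison. From each list, up to 3 called rises and falls were named. Some genes that these rules name are not reported here. In all, 3 list and marker genes with 2 identifiers each were left out. Promoter windows are from RefSeq. Protein sequences were not used here. Other steps used pandas 2.3.3 and numpy 2.4.6 under Python 3.11.15, with figures from matplotlib 3.10.9.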

Additional observations from a re-analysis of the deposited data

Results flagged for a closer look

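In 5 of the 86 groups of 4 libraries (43 genes at day 3 and at day 7), the highest or lowest library stood farther from its nearest neighbour than Dixon's critical value for 4 samples allows; chance gives about 1 in 20 such groups. Day 3 replicate 2 was the highest for Slc2a2 (8.53 FPKM) and for Slc16a4 (3.07 FPKM). Day 7 replicate 2 was the highest for Slc2a1 (73 FPKM), day 7 replicate 4 for Slc2a5 (0.84 FPKM), and day 3 replicate 3 was the lowest for Slc2a12 (0.556 FPKM).

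The effects of the 2 times against control differed in the direct test between them for 16 genes. The difference on the log2 scale was −1.63 for Slc17a1, −1.57 for Slc5a2, −1.19 for Slc2a2, −1.16 for Slc5a12, −1.08 for Slc5a11, −1.07 for Slc17a3, −0.84 for Slc5a8 and −0.73 for Slc37a4. It was −0.69 for Slc2a5, −0.67 for Slc16a9, −0.66 for Slc5a9, −0.57 for Slc5a1, −0.51 for Slc16a13, −0.48 for Slc16a14 and −0.40 for Slc37a3. Slc2a10 was higher at day 7, by 0.71.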

How the results depend on the processing

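Of the 27 falls and 10 rises at day 3, 22 and 5 kept their call under every alternative run for them (21, or 20 for members that the 2 FPKM minimum left out), as did 23 of 27 falls and 5 of 9 rises at day 7, and 10 of 15 falls and 0 of 1 rise between the days. The rises kept throughout were those of Slc37a2, Slc2a6, Slc16a1 and Slc16a6 at both times, Slc16a10 at day 3 and Slc2a10 at day 7. The number of members higher at day 3 was 5 with median centring and 5 with quantile normalization, and at day 7 it was 5 with quantile normalization. All genes higher in those fits numbered 3743, 4146 and 4535, beside 5957 at day 3 and 6217 at day 7 in the main fit. Between the days, 0 members were higher with a minimum mean of 2 FPKM, where 37 members were tested, and 2 after median centring. Leaving out 1 library at a time gave 0 to 2 members higher and 11 to 17 lower between the days, 8 to 10 higher and 25 to 27 lower at day 3, and 9 to 11 higher and 26 to 28 lower at day 7. Over the same fits, all genes called between the days ranged from 685 to 1079 higher and from 615 to 1629 lower. At day 3 they ranged from 5419 to 6017 higher and from 2543 to 2841 lower. At day 7 the ranges were 5784 to 6267 and 2921 to 3237. Over all lists of enzymes and regulators, 20 genes were higher and 54 lower at day 3, and 16 and 59 at day 7, with 13 higher at day 3 after median centring and 25 at day 7 after rescaling to TPM. Between the days, 1 list gene was higher, 2 after median centring, after rescaling to TPM, with only both groups compared and with the replicate block, and 0 to 3 with 1 library left out, where 31 were lower and 21 to 39 without 1 library. Where calls were lost the cause was not tested.

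The direction turned in genes that were not called: at day 3 for Slc37a3 (−0.15 after median centring, −0.14 after quantile normalization), Slc45a4 (−0.22 and −0.21; −0.01 without control replicate 1, and −0.05 to 0.3 over the fits that leave out a library), Slc5a3 (−0.29 and −0.24; −0.02 without day 3 replicate 3, and −0.24 to 0.24 over such fits) and, after rescaling to TPM, Slc2a8 (0.13), Slc16a5 (0.05) and Slc17a5 (0.26). At day 7 it turned for Slc37a1 (−0.02 after quantile normalization), for Slc2a9 (0.25), Slc37a3 (0.20) and Slc2a13 (0.28) after rescaling to TPM, and for Slc2a13 without control replicate 3 (0.07) or day 7 replicate 3 (0.04), where such fits gave −0.17 to 0.07. Between the days it turned for Slc16a6 (0.00 after quantile normalization, after rescaling to TPM and without day 7 replicate 1; 0.14 without day 3 replicate 3; 0.02 without day 7 replicate 2; range −0.19 to 0.14), Slc37a2 (−0.01 without day 3 replicate 2; range to 0.38), Slc2a3 (−0.02 without day 3 replicate 4; range to 0.13) and Slc16a3 (−0.02 without day 7 replicate 2; range to 0.36).

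Replicate numbers are shared between groups, but nothing says that they pair samples: deviations from the group means of same-numbered libraries correlated at −0.138 to 0.428 over 10 pairs, and of others at −0.467 to 0.523 over 30. With the replicate block, 10 members were higher and 28 lower at day 3, 11 and 28 at day 7, and 1 and 15 between the days, and it called Slc5a3 (0.57, adjusted p = 0.0238), Slc16a5 (−0.88, adjusted p = 0.00451) and Slc45a4 (0.46, adjusted p = 0.0489) at day 7 and Slc2a8 (−0.31, adjusted p = 0.0488) at day 3, which the fit without it did not. Depth per library is unknown, so no counting limit can be given.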
